A study of Mus musculus with 6 samples.

Results

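Ighm, Trbc2, Igkc and Jchain, 4 of the 32285 genes in the count matrices, are constant-region or accessory genes of the antigen receptors of lymphocytes. They were chosen by their measured counts in these sections, which lay partly in spots rich in the layer 6 neuron genes Rprm and Tbr1 and partly in scattered spots. That layer pattern is therefore described here without a test, and tests are confined to age. The study cut coronal sections of the brains of C57BL/6J males and profiled them with 10x Genomics Visium, which counts 3′ ends of transcripts as unique molecular identifiers (UMIs) in spots, each a small area that can hold several cells. There were 2 young sections from mice of 6 months, 2 middle sections from mice of 18 months and 2 old sections from mice of 21 months, with 2 males named for each age. All tissue was frozen and cut at 16 µm. No genotype or treatment separates the groups, so age is the labelled difference. Both young sections, middle 1 and old 1 were on slide 1, while middle 2 and old 2 were on slide 2.

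Ighm encodes the constant part of the mu heavy chain of immunoglobulin M. Igkc encodes the constant part of the kappa light chain, and Jchain encodes the joining chain that links immunoglobulin M or A units in antibody-secreting cells. Trbc2 and its neighbour Trbc1 encode the constant part of the T cell receptor beta chain. In a lymphocyte these constant segments are spliced to a variable (V) segment that was rearranged in that cell's DNA, so a complete receptor transcript starts with a V sequence and ends with the constant sequence. Transcripts of the T cell receptor beta constant locus have also been described in neurons. Rprm, the cell-cycle regulator reprimo, and Tbr1, a transcription factor of deep-layer projection neurons, mark layer 6 of the cortex, whose pyramidal cells project to the thalamus. Tbr1 is also a gene of layer 6b, the piriform cortex and the amygdala.

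In the GENCODE M21 annotation of GRCm38, Ighm lies at chr12:113418558-113422730 on the minus strand, and Ighg2c, a gamma heavy chain constant gene, lies at chr12:113285325-113288932 on the same strand. Trbc2 lies at chr6:41546730-41548352 on the plus strand, and Trbc1 lies at chr6:41538218-41539881. Igkc lies at chr6:70726435-70726966 on the plus strand and Jchain at chr5:88519809-88527891 on the minus strand. Igkc sits inside the interval of the long noncoding gene Gm30211 on the same strand, so reads of these genes cannot be told apart within Igkc, and Gm30211 was listed with 0 UMIs in all 6 sections. The coding sequences of Trbc1 and Trbc2 are identical at 495 of 518 aligned bases (95.6%), so a Trbc2 count is uncertain to the extent that reads from the shared bases were assigned to either gene. How shared reads were assigned is not given in the sources used here.

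The coding stretch with most differences between the paralogs, coding bases 400 to 489 of each, shows how few coding bases separate them. The untranslated parts of the transcripts were not compared. Capitals mark the 14 bases that differ in this window of 90. The first is Trbc1 at chr6:41539235-41539324 and the next is Trbc2 at chr6:41547778-41547867, both on the plus strand.
Trbc1: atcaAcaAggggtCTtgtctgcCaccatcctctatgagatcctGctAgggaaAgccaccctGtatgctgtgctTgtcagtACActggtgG
Trbc2: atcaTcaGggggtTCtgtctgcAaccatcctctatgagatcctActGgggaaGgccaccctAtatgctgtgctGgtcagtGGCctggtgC

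Ighm has a secreted and a membrane-bound form that end in different exons, and the count of the gene sums them. Their last 60 coding bases are printed because they are what a reader would need to separate the forms in the reads. Capitals mark the bases that belong to 1 form alone. The secreted end is at chr12:113420870-113420929, and the membrane end is spliced from chr12:113418953-113419006 and chr12:113418829-113418834, on the minus strand.
Secreted form: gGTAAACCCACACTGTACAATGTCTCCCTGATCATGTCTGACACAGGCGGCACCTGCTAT
Membrane form: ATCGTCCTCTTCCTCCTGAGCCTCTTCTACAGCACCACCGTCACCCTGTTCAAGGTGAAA

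The 6 sections held 16741 spots after 2 spots with under 500 UMIs were left out. Sections had 2573 to 2973 spots, 60938938 to 77557934 UMIs in all, and a median of 20370 to 30093 UMIs per spot, with the lowest medians in the old sections. Of 3389 distinct spot barcodes, 1919 occurred in all 6 sections, since barcodes name positions on a slide. The labels give separate males for each age but do not tie a male to a section, so p-values measure the spread between these sections. Levels below are UMIs per 1000000 UMIs (CPM) of the spots concerned, compared within a gene only, because 3′ counting does not make levels of different genes comparable. A lower level in a group of spots can mean fewer cells of a type or less RNA per cell, which cannot be told apart here. Counting intervals and limits cover counting error only.

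Spots with at least 1 Rprm UMI and at least 1 Tbr1 UMI per 10000 UMIs of the spot are called Rprm and Tbr1 spots. Young 1 and young 2 had 220 and 218 of them, middle 1 and middle 2 had 248 and 218, and old 1 and old 2 had 297 and 233, which makes 1434. They made up 8.16% ± 0.549 (SD, n = 2) of the spots of young, 8.43% ± 0.906 of middle and 9.07% ± 1.3 of old sections (two-sided exact permutation p = 0.6667 over 90 assignments). This test cannot go below 0.0667 with 2 sections per age. The number of such spots depends on depth: with each spot thinned to 10000 UMIs, the same rule took 13.1% to 16.8% of the spots of a section. The label of layer 6 held only in part. Spots were also clustered without antigen receptor genes, and the cluster led by layer 6 markers held 52.7% and 49.1% of the Rprm and Tbr1 spots in young, 46.8% and 53.2% in middle and 41.4% and 45.9% in old sections. The rest lay mainly in clusters of the piriform and lateral cortex and amygdala, of layer 6b, and in unnamed clusters. The old sections had the lowest shares in the layer 6 cluster.

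Ighm had 13268 UMIs. In the Rprm and Tbr1 spots its level was 119 and 102 CPM in young, 101 and 122 CPM in middle, and 75.4 and 83.1 CPM in old sections. In all other spots it was 18.1 and 16.6 CPM in young, 23.8 and 24.7 CPM in middle, and 22.6 and 24.9 CPM in old sections. Every section was thus higher in the Rprm and Tbr1 spots, by 3.34-fold to 6.60-fold, and the spot classes did not overlap. Of all 23985 genes with a UMI, 16.8% were likewise higher in every section, a contrast that chose the members and from which nothing is read. The mean difference was 78.6 CPM ± 19.9 (SD, n = 6). These spots held 36.8% of all Ighm UMIs and 10.2% to 12.5% of the UMIs of all genes in a section.

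Trbc2 had 9680 UMIs and followed the same division of spots with less spread. Its level in the Rprm and Tbr1 spots was 95.6 and 92.6 CPM in young, 90.2 and 95.2 CPM in middle, and 84.5 and 84.5 CPM in old sections. Elsewhere it was 16.2 and 13.9 CPM in young, 13.4 and 13.2 CPM in middle, and 11.7 and 13.2 CPM in old sections. The fold between spot classes ran from 5.90 to 7.22, and the mean difference was 76.8 CPM ± 4.10 (SD, n = 6). The Rprm and Tbr1 spots held 45.3% of all Trbc2 UMIs. Among 9589 genes with a mean level of at least 10 CPM, ranked by the ratio of these spots to the others, Rprm was first, Trbc2 had rank 2, Nxph3 rank 3, Ighm rank 4 and Myl4 rank 5. Rprm stands first because it chose the spots. Nxph3 encodes neurexophilin 3, a secreted ligand of neurexins, and Myl4 encodes a myosin light chain.

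**Figure D1:**
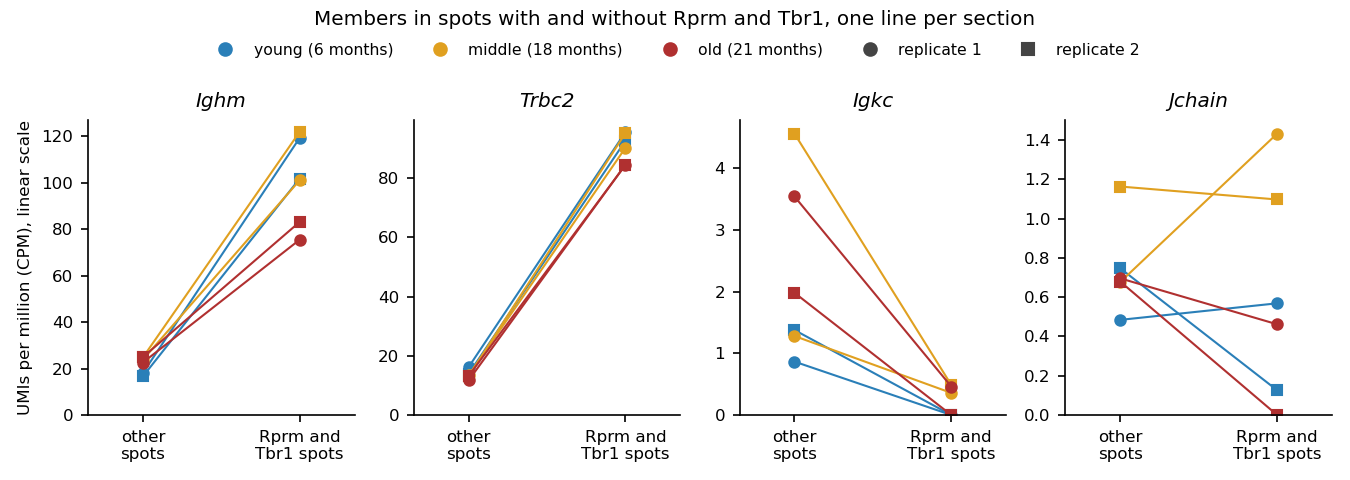
Level of each member (CPM, linear axis from 0, a scale of its own per panel) in other spots and in Rprm and Tbr1 spots, 1 line per section, coloured by age, with circles for replicate 1 and squares for replicate 2. All 6 lines rise for Ighm and Trbc2, Igkc is near 0 in the Rprm and Tbr1 spots, and Jchain has lines in both directions.

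The remaining members did not share this division. Igkc had 881 UMIs in all, of which 11 were in Rprm and Tbr1 spots. Its level there was 0 CPM in both young sections and in old 2, and 0.358, 0.488 and 0.462 CPM in middle 1, middle 2 and old 1. A count of 0 allows up to 0.341 CPM in young 1, 0.379 CPM in young 2 and 0.464 CPM in old 2 (3 counts per section). Jchain had 319 UMIs and ranged from 0 to 1.43 CPM in these spots and from 0.484 to 1.16 CPM elsewhere. It was higher in the Rprm and Tbr1 spots in 2 of 6 sections, and its mean difference of -0.127 CPM was smaller than the spread between sections (SD 0.527, n = 6).

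The levels of Ighm and Trbc2 were graded with the neuronal genes. Spots were binned by the smaller of their Rprm and Tbr1 levels per 10000 UMIs, and each bin's level was averaged over the 6 sections. For Ighm the mean was 18.4 CPM ± 4.65 (SD, n = 6) in the 11837 spots where that smaller level was 0, 24.3 ± 3.93 above 0 and under 0.5, 37.8 ± 6.18 from 0.5 to under 1, 75.7 ± 12.4 from 1 to under 2, and 139 CPM from 2 upwards. Trbc2 went from 8.21 CPM ± 1.11 (SD, n = 6) through 23.0, 29.97 and 65.0 CPM to 131 CPM over the same bins. The bins just outside and just inside the threshold of 1 were thus steps on a rise that also ran through the bins away from it. Igkc went the other way, from 2.99 CPM to 0.207 CPM, and Jchain stayed between 0.593 and 0.797 CPM.

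**Figure D2:**
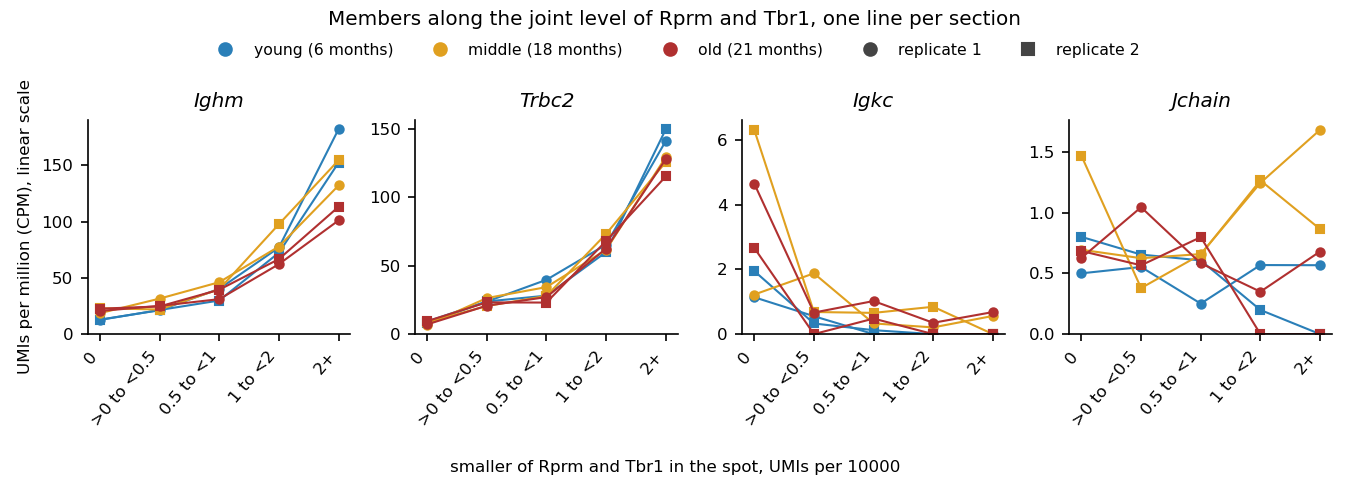
Level of each member (CPM, linear axis from 0) against bins of the smaller of Rprm and Tbr1 per 10000 UMIs of the spot, 1 line per section, coloured by age, circles and squares for replicates 1 and 2. The means of Ighm and Trbc2 rise over the bins, from 18.4 to 139 and from 8.21 to 131 CPM, and in each section the last bin is the highest, while single steps between low bins fall for Ighm in middle 2 and for Trbc2 in old 2.

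Within the Rprm and Tbr1 spots, the layer 6 cluster carried most of the signal. Ighm in the spots of this class inside the cluster was 199 and 161 CPM in young, 152 and 196 CPM in middle, and 135 and 143 CPM in old sections. In those outside the cluster it was 36.6 and 37.0 CPM in young, 45.0 and 37.5 CPM in middle, and 22.3 and 33.0 CPM in old sections. Trbc2 had the same split, at 143 to 159 CPM inside and 24.7 to 34.1 CPM outside. Rprm was at 270 to 353 CPM inside and 222 to 258 CPM outside, and Tbr1 at 257 to 291 and 187 to 209 CPM, both held up by the rule that chose the spots. Not every spot of the class held a member's UMI: 29.5%, 28.4%, 29.8%, 28.9%, 44.4% and 36.9% of Rprm and Tbr1 spots lacked Ighm in young 1, young 2, middle 1, middle 2, old 1 and old 2. These shares also vary with depth. The median UMIs of these spots were 39034.5 and 36588 in young, 33709 and 37801 in middle, and 29671 and 27774 in old sections.

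Depth differs between the spot classes, so detection was also compared after each spot was thinned to 10000 UMIs, with 130 to 350 shallower spots per section left out. Ighm was then detected in 39.9% to 54.1% of Rprm and Tbr1 spots and 13.0% to 18.5% of other spots. The lowest shares in Rprm and Tbr1 spots were those of old 1 and old 2, 39.9% and 46.7%. Trbc2 was detected in 41.0% to 53.6% and 7.88% to 10.1%. Without thinning these shares were 55.6% to 71.6% and 25.4% to 32.9% for Ighm, and 55.9% to 71.6% and 14.7% to 22.2% for Trbc2. The ranges of the spot classes did not overlap for either gene at either depth. Igkc was detected in at most 0.820% of thinned Rprm and Tbr1 spots and in 0.854% to 2.61% of other spots. Jchain was detected in at most 1.85% and in 0.416% to 0.744%.

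The genes whose spot pattern was most like that of each member were named by the mean over sections of the Pearson correlation of log(1 + UMIs per 10000) across 2573 to 2973 spots, among 12763 other genes with at least 1000 UMIs. Spots of a section share a library and differ in depth, so these values are descriptions. For Ighm the highest was Trbc2, with a mean r of 0.43 (0.32 to 0.60 over 6 sections), then Nptx1, Vxn, Tmem178 and Myl4, at 0.37 to 0.33. For Trbc2 they were Vxn at 0.57, Myl4 at 0.54, Hs3st2 at 0.52, Arc at 0.51 and Tbr1 at 0.49. Vxn encodes vexin, Hs3st2 a heparan sulfate sulfotransferase, Arc an activity-induced gene of excitatory neurons, and Nptx1 the synaptic protein neuronal pentraxin 1. Inside the Rprm and Tbr1 spots alone, Ighm and Trbc2 still varied together, with r of 0.71, 0.66, 0.66, 0.62, 0.67 and 0.51 in young 1 to old 2. Igkc had lower values, led by Gbx2 at 0.24, then Fbln1, Maob, Lhx9 and Zic5, and no gene of at least 1000 UMIs exceeded 0.067 for Jchain. Igkc and Jchain, which are below that minimum, had a mean r of 0.20 with each other (-0.012 to 0.54 over 6 sections). These values rest on sparse counts.

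Over the clusters the members parted. Over 24 spot clusters, Ighm was highest in the layer 6 cluster, at 159 CPM ± 24.2 (SD, n = 6), next in the dentate gyrus cluster at 98.3 ± 44.2, then in the smaller of the white matter clusters at 77.7 ± 21.1, in layer 6b at 44.5 CPM and in CA1 of the hippocampus at 34.6 CPM. Neighbours in this order differed by less than the larger of their spreads, except for layer 6 against the dentate gyrus and for this white matter cluster against layer 6b. Trbc2 was highest in the layer 6 cluster at 139 CPM ± 6.29 (SD, n = 6), followed by layer 5 at 47.6 ± 4.99, the same white matter cluster at 38.9 ± 16.1 and layer 4 at 33.2 CPM. The sections of the white matter cluster, from 13.1 to 63.1 CPM, overlapped those of layer 5 and of layer 4. Of the 50 leading genes of this white matter cluster, 12 were white matter markers and 3 were layer 6b markers. Ccn2 and Cplx3 stood first, as in the layer 6b cluster, so its name held only in part. The larger white matter cluster had Ighm at 19.2 CPM. The smaller white matter cluster and layer 6b themselves held Rprm and Tbr1 spots, 2.04% to 28.3% and 22.1% to 35.9% of their spots, with Tbr1 at 103 and 210 CPM on average. Igkc was highest in a thalamic cluster at 25.6 CPM ± 7.67, then in the meninges at 17.0 ± 20.0. The spread in the meninges exceeded its mean. Jchain was highest in the meninges at 3.21 CPM ± 4.87, followed by the same thalamic cluster at 1.03 CPM ± 0.907. The thalamic value rested on 10 UMIs in all and was not separate from the next, a hypothalamus cluster at 0.998 CPM ± 0.521.

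In the comparison of ages, the whole sections gave no called change for any member. Tests used edgeR's quasi-likelihood test on section sums over all genes, with Benjamini-Hochberg adjustment and a threshold of 0.05. Ighm as a whole was at 29.6 and 25.3 CPM in young, 32.3 and 35.3 CPM in middle, and 29.2 and 31.0 CPM in old sections, and the log2 change from young to old was 0.08 with an SE of 0.09 (edgeR adjusted p = 0.758). Trbc2 was at 25.3 and 21.9 CPM in young, 21.8 and 22.1 CPM in middle, and 20.8 and 20.8 CPM in old sections (log2 change -0.23 ± 0.08, edgeR adjusted p = 0.327). Igkc gave 1.25 ± 0.71 (edgeR adjusted p = 0.531) and Jchain 0.07 ± 0.28 (edgeR adjusted p = 0.953). The background of calls was 0.164% of 17673 genes for old against young, 29 genes (7 with slide as a block and 194 with DESeq2). It was 0.0679% for middle against young and 0.0% for old against middle, where 361 genes had an unadjusted p under 0.05 and DESeq2 also called 0. The first 2 of these contrasts share the young sections.

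The whole-section value of Ighm joined spot classes that differed in their change with age. In the Rprm and Tbr1 spots Ighm fell by 0.53 ± 0.10 (SE, edgeR adjusted p = 0.0304) on the log2 scale in old against young sections, where 0.333% of 13834 genes were called, 46 in all (17 with DESeq2 and 23 with slide as a block). Both old sections, at 75.4 and 83.1 CPM, lay below both young sections, at 102 and 119 CPM. On slide 1 alone the levels were 119 and 102 CPM in young, 101 CPM in middle and 75.4 CPM in old, and on slide 2 they were 122 CPM in middle and 83.1 CPM in old. Middle against young gave -0.02 ± 0.09 (edgeR adjusted p = 0.984; 0.412% of genes called) and old against middle -0.51 ± 0.10 (edgeR adjusted p = 0.278; 0.00723% of genes called). The call for old against young was lost without old 1 (-0.45, adjusted p = 0.367) and without old 2 (-0.60, adjusted p = 0.0863). It was also lost with the threshold on Rprm and Tbr1 at 0.5 (-0.36, adjusted p = 0.362) or with the top 10% of spots taken (-0.40, adjusted p = 0.169). Over all 16 alternatives the edgeR or DESeq2 adjusted p ran from 3.08e-09 to 0.367.

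Other values moved with this fall, and their part in it was not tested. The share of Rprm and Tbr1 spots that lay in the layer 6 cluster was lower in old sections, as given above, and Ighm inside that shared set was 135 and 143 CPM in old against 199 and 161 CPM in young sections. In the layer 6 cluster as a whole, Ighm was 190 and 156 CPM in young, 147 and 185 CPM in middle, and 127 and 148 CPM in old sections, with a log2 change of -0.38 ± 0.13 (edgeR adjusted p = 0.394; 0.336% of 13080 genes called). None of the 11 layer 6 markers was called in the Rprm and Tbr1 spots, and their median log2 change was -0.19, against 0.0017 over all genes. Among them Foxp2, a transcription factor, was at -0.64 (edgeR adjusted p = 0.0521), Syt6, a synaptotagmin, at -0.55 (0.0593), Tle4, a corepressor, at -0.37 (0.0652), Tbr1 at -0.11, Rprm at 0.06 and Fezf2, a transcription factor of deep-layer neurons, at 0.24.

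In all other spots Ighm lay at 18.1 and 16.6 CPM in young sections and at 22.6 and 24.9 CPM in old sections, without overlap. The log2 fold change was 0.40 ± 0.08 (SE, edgeR adjusted p = 0.156; 0.12% of 17542 genes called), which did not pass the threshold. DESeq2 gave an adjusted p of 0.0271, in a range of 0.0271 to 0.823 over 18 alternatives. The makeup of the other spots differed between sections, since dentate gyrus and CA1 clusters, which are high in Ighm, were 1.10% and 9.36% of them in young, 7.72% and 5.69% in middle, and 9.34% and 6.82% in old sections. Without those clusters Ighm in the other spots was 17.9 and 14.4 CPM in young, 18.6 and 22.1 CPM in middle, and 15.4 and 21.3 CPM in old sections, so that old and young overlapped (log2 change 0.13 ± 0.20, edgeR adjusted p = 0.823). The difference between the spot classes was tested within the sections. The change of Ighm from young to old was 0.93 lower on the log2 scale in Rprm and Tbr1 spots than in other spots (interaction -0.93 ± 0.08, SE, edgeR adjusted p = 7.13e-10), the smallest adjusted p of 16771 genes. At this test 0.0596% of genes were called, 10 in all (2 with DESeq2). The called genes also included Hspa1a and Hspa1b, heat shock genes, Hba-a1 and Hba-a2, haemoglobin genes, Npy, Camk2n1, Syt6, AC149090.1 and C1ql2, a gene of dentate granule cells. The interaction of Ighm was called with all 14 alternatives, between -0.64 and -1.01, and its value nearest to 0 was that without the dentate gyrus and CA1 clusters (-0.64 ± 0.09, edgeR adjusted p = 0.000178, in a range of 1.33e-16 to 0.000178), an alternative chosen after seeing the data. The share of Ighm UMIs that lay in Rprm and Tbr1 spots was 46.0% and 41.1% in young, 34.3% and 37.6% in middle, and 32.4% and 28.4% in old sections.

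No change of Trbc2 was called in these tests. Both old sections still lay below both young ones in the Rprm and Tbr1 spots, at 84.5 and 84.5 CPM against 95.6 and 92.6 CPM. The same held in the other spots, at 11.7 and 13.2 CPM against 16.2 and 13.9 CPM. In the Rprm and Tbr1 spots the log2 fold change of Trbc2 from young to old was -0.20 ± 0.07 (SE, edgeR adjusted p = 0.309), and in other spots it was -0.33 ± 0.11 (edgeR adjusted p = 0.316). The interaction was 0.13 ± 0.09 (edgeR adjusted p = 1), and it turned to -0.13 with the threshold on Rprm and Tbr1 at 2. Inside the Rprm and Tbr1 spots of the layer 6 cluster Trbc2 was at 159 and 146 CPM in young and 152 and 148 CPM in old sections, which overlapped.

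**Figure D3:**
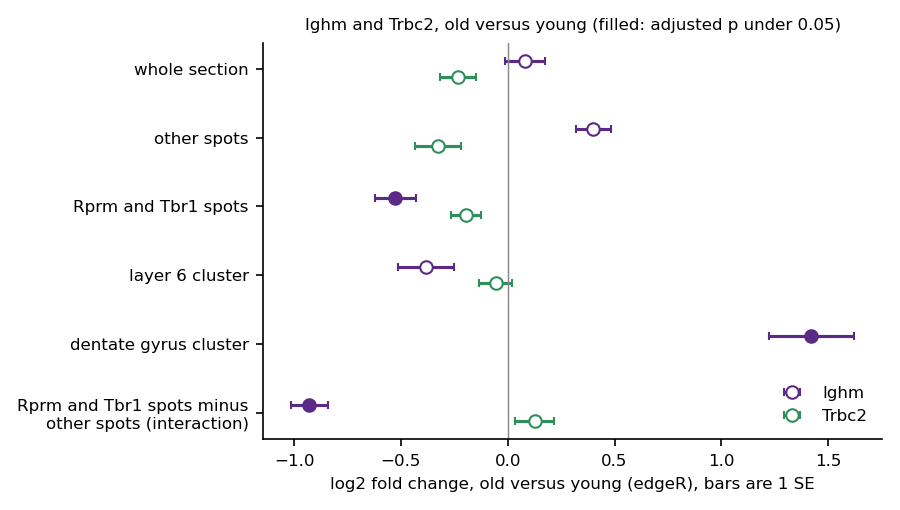
log2 fold change of Ighm and Trbc2 in old against young sections with 1 SE (horizontal axis), for whole sections, spot classes, clusters and the difference between spot classes (rows). Filled points passed an edgeR adjusted p of 0.05: Ighm at -0.53 in Rprm and Tbr1 spots, 1.42 in the dentate gyrus cluster and -0.93 for the difference. Trbc2 did not pass the filter on low counts in the dentate gyrus cluster and has no point there.

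The dentate gyrus, the granule cell layer of the hippocampal formation, went the other way. Its Ighm level was 36.0 and 52.9 CPM in young, 128 and 111 CPM in middle, and 149 and 112 CPM in old sections. All 4 middle and old sections lay above both young ones. Ighm rose by 1.42 ± 0.20 on the log2 scale (SE, edgeR adjusted p = 0.0312) in old against young, where 0.017% of 11735 genes were called. Middle against young gave 1.31 ± 0.20 (edgeR adjusted p = 0.0795; 0.00852% of genes called), and old against middle 0.11 ± 0.17 (edgeR adjusted p = 1). Young 1 held only 9 spots of this cluster and 10 Ighm UMIs in them, against 71 to 99 spots in the other sections. The change was also called without young 1 and without young 2. It was not called without middle 1 (1.44), middle 2 (1.44), old 1 (1.2) or old 2 (1.64), nor with at least 10 counts per section (1.42, adjusted p = 0.123), finer clusters (1.44, adjusted p = 0.104) or slide as a block (1.58, adjusted p = 0.443), and over 14 alternatives the adjusted p ran from 2.22e-10 to 1.

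Over the 24 clusters, both old sections lay above both young sections for Ighm in 11 clusters and below them in 2, namely the layer 6 cluster and an unnamed cluster. Over all gene and cluster pairs the share of such separations was 22.0% upwards and 13.8% downwards. The median gene was above in 5 clusters, and 9.55% of genes were above in as many clusters as Ighm. The clusters with higher Ighm in old sections included the dentate gyrus, CA1 and the smaller white matter cluster. In the last it was 41.5 and 68.6 CPM in young, 90.9 and 101 CPM in middle, and 76.0 and 87.9 CPM in old sections. Rprm in that white matter cluster was at 21.4 and 94.8 CPM in young, 72.9 and 101 CPM in middle, and 88.2 and 94.1 CPM in old sections. Old and young thus overlapped for Rprm, and young 1 alone was low. The share of Rprm and Tbr1 spots there was 2.04% in young 1 and 13.5% to 28.3% in the other sections. Without those spots Ighm there was 37.6 and 43.0 CPM in young, 79.5 and 67.5 CPM in middle, and 63.7 and 65.7 CPM in old sections, which did not overlap between young and old. Trbc2 was above in 2 clusters and below in 2.

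**Figure D4:**
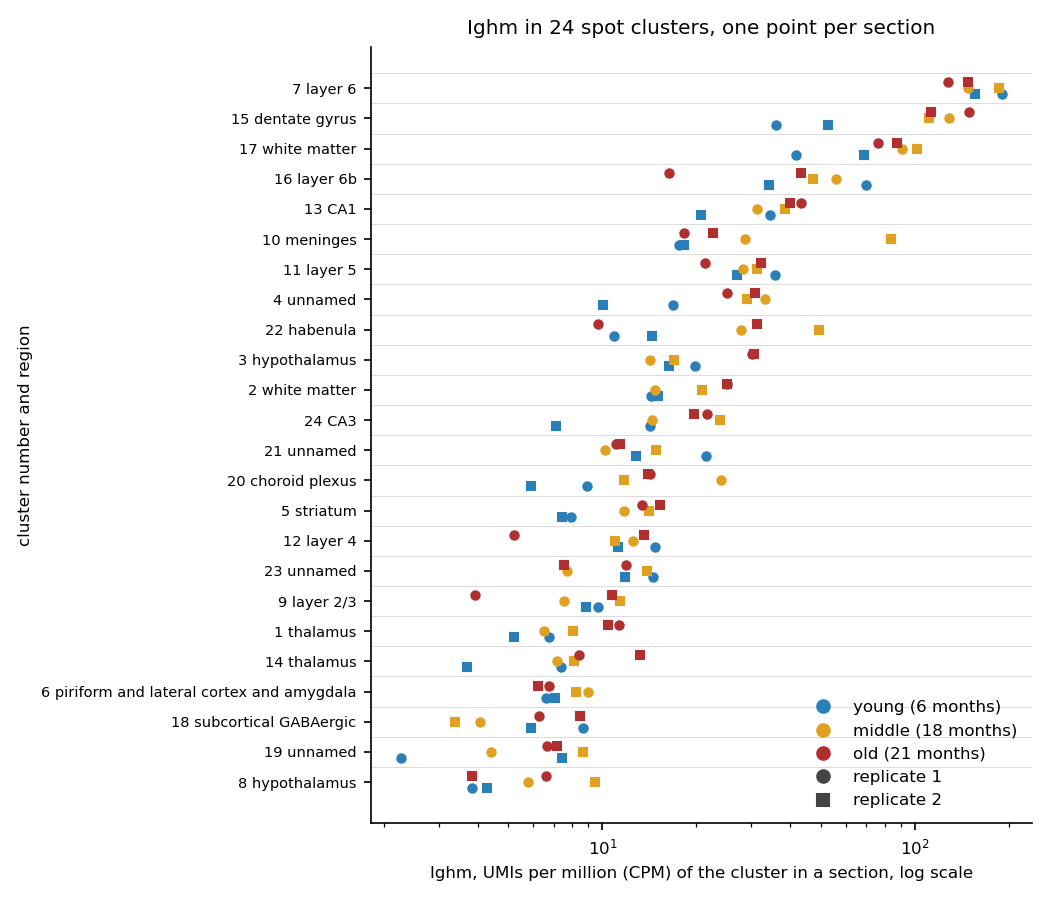
Ighm in each of 24 spot clusters (rows, ordered by mean level) as CPM of the cluster on a log axis, 1 point per section, coloured by age, circles and squares for replicates 1 and 2. In the layer 6 cluster the old sections, at 127 and 148 CPM, lie below the young ones, and in the dentate gyrus cluster, at 149 and 112 CPM, above them.

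Igkc was found in 449 spots, of which 323 held 1 UMI, and it had separate sources. Outside the 2 described below, 208 spots held 256 Igkc UMIs. Among these, 53 were in the choroid plexus, the secretory tissue of the ventricles, at 6.19 CPM ± 1.90 (SD, n = 6). The first source was the thalamic cluster led by Gbx2, a homeobox gene of thalamic neurons, and Calb2, the calcium-binding protein calretinin. This cluster held 331 Igkc UMIs (37.6%) in 176 spots, at most 8 per spot. The level of Igkc in this cluster was 13.2 and 23.8 CPM in young, 22.9 and 35.9 CPM in middle, and 27.8 and 30.1 CPM in old sections, and 0.453 to 3.1 CPM in the rest of a section. Of the 14 spots with at least 5 Igkc UMIs, 10 were in this cluster, and they had at most 3 Ighm UMIs and 0 Jchain UMIs. For old against young the log2 change was 0.57 with an SE of 0.25 (edgeR adjusted p = 1; 0.0256% of 11711 genes called). Trdc, the constant gene of the T cell receptor delta chain, also had its highest level in this cluster, at 4.02 CPM ± 2.58 (SD, n = 6), with 54 of its 226 UMIs there.

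The second source was the meninges, the connective tissue sheath of the brain. Its cluster held 294 Igkc UMIs (33.4%) in 65 spots, and a single spot held 147 of them. That spot, in middle 2, had 178 Ighm, 147 Igkc and 33 Jchain UMIs of 31826 in all. A meningeal spot of middle 1 had 26 Ighm, 22 Igkc and 3 Jchain UMIs, and a meningeal spot of old 1 had 13, 36 and 2. A spot of middle 2 in the larger white matter cluster had 9, 16 and 2. Its meningeal marker UMIs as a share of its UMIs stood at the 97.5th percentile of its section. These were all of the spots with at least 10 Igkc UMIs. Each combined heavy chain, light chain and joining chain. The 10 thalamic spots with at least 5 Igkc UMIs had no Jchain UMI. They held at most 8 Igkc UMIs each, against 16 or more in the 4 spots, so the absence of Jchain there says little. Of all spots with Igkc, 5 of 176 in the thalamic cluster and 6 of 65 in the meninges held Jchain. The 4 spots held 3 to 10 UMIs of the plasma cell list, among them up to 8 of Xbp1 and 1 of Derl3 in a single spot. They also held up to 5 UMIs of Txndc5, which encodes a protein of the endoplasmic reticulum. The 10 thalamic spots held 0 to 8 UMIs of the same list, with up to 6 of Xbp1 and up to 3 of Txndc5, so the ranges overlapped. Xbp1 and Txndc5 were counted widely, with 34016 and 14699 UMIs over all sections. Cd79a, a signalling chain of the B cell receptor, had 2 UMIs in the spot with 147 Igkc UMIs and 1 in that of old 1, and 3 of the 4 spots had 1 to 3 UMIs of the lambda light chain constant genes. None held a UMI of an immunoglobulin V gene, of Mzb1, a chaperone of antibody-secreting cells, or of Trbc2. For V genes this is not informative, since counts come from 3′ ends and V sequences lie at the start of a transcript. None of the 4 spots was a Rprm and Tbr1 spot, a class with 1434 of all 16741 spots.

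The share of spots with at least 10 Igkc UMIs was 0 of 2573 and 0 of 2804 in young, 1 of 2735 and 2 of 2800 in middle, and 1 of 2973 and 0 of 2856 in old sections. In percent this was 0.0366% and 0.0714% in middle and 0.0336% in old 1, with exact Clopper-Pearson 95% intervals of 0.000926% to 0.204%, 0.00865% to 0.258% and 0.000852% to 0.187%. A count of 0 allows up to 0.117% in young 1, 0.107% in young 2 and 0.105% in old 2. A difference between ages was not detectable at this depth (two-sided exact permutation p = 0.2, where the design cannot go below 0.0667). Spots with at least 1 Igkc UMI made up 1.67% and 2.32% in young, 1.79% and 3.25% in middle, and 4.10% and 2.77% in old sections (two-sided exact permutation p = 0.4). Whole-section levels of Igkc rested in part on single spots. They were 0.767 and 1.24 CPM in young, 1.18 and 4.12 CPM in middle, and 3.16 and 1.77 CPM in old sections, and without the spots of at least 10 Igkc UMIs those of middle 1, middle 2 and old 1 became 0.892, 1.95 and 2.64 CPM. In middle 2 the high spots held 52.6% of the Igkc, 40.2% of the Jchain and 7.04% of the Ighm UMIs of the section.

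**Figure D5:**
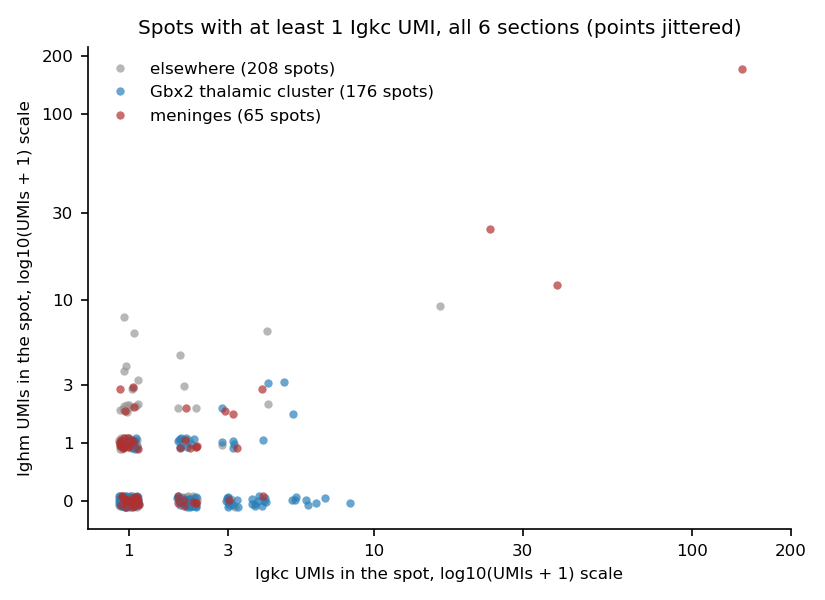
Each of the 449 spots with an Igkc UMI, with its Igkc UMIs (horizontal) and Ighm UMIs (vertical), both on a log10(UMIs + 1) scale with jitter, coloured by place. The thalamic spots reach 8 Igkc UMIs, and the 10 of them with at least 5 Igkc UMIs have at most 3 Ighm UMIs. The spots with most Igkc, 3 of them meningeal, rise in both genes to 147 and 178 UMIs.

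Jchain was thin throughout. Its whole-section level was 0.494 and 0.683 CPM in young, 0.760 and 1.16 CPM in middle, and 0.666 and 0.607 CPM in old sections. The highest, in middle 2, included the 33 UMIs of the meningeal spot, without which its other spots held at most 2 UMIs each. Jchain accompanied Igkc in 26 of the 449 Igkc spots. These were 2 and 3 spots in young, 5 and 10 in middle, and 5 and 1 in old sections. Independent placement over all spots would give 0.635 and 1.21, 0.985 and 1.69, and 1.76 and 0.996. That expectation ignores depth and place, and the difference was not tested.

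T cells were sought separately from Trbc2, by 7 other genes of T cells (Cd3d, Cd3e, Cd3g, Trbc1, Cd8a, Cd8b1 and Cd2), with the minimum of 3 UMIs per spot chosen after the counts were seen. There were 13 such spots, 2 and 1 in young, 4 and 2 in middle, and 1 and 3 in old sections. White matter clusters, with 1619 of all 16741 spots, held 6 of them, and the choroid plexus, with 294, held 3. None was a Rprm and Tbr1 spot, a class with 1434 of all spots, so that a count of 0 among 13 says little. Ccl5, a chemokine gene of cytotoxic T cells, was found in 9 of the 13 spots. The 13 spots held 11 Trbc2 UMIs of 9680, at most 2 in a spot. Spots with at least 1 UMI of these T cell genes numbered 19 and 15 in young, 36 and 45 in middle, and 23 and 37 in old sections. In Rprm and Tbr1 spots they made up at most 0.459% in any section, against 0.541% to 1.70% of other spots.

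Other genes of antigen receptors and lymphocytes were counted from lists. The 346 immunoglobulin V genes had 7 UMIs together and the 170 T cell receptor V genes had 25. Counts come from 3′ ends and V sequences lie at the start of a transcript. These low counts therefore cannot show whether transcripts were rearranged. Of 10 other immunoglobulin constant genes, Ighg2c had 1477 UMIs and Ighd 111, while Ighg1 and Ighe had 0. Ighg2c was the only one higher in Rprm and Tbr1 spots in all 6 sections, at 10.4 CPM against 2.54 CPM on average, where 16.8% of all 23985 genes with a UMI were as consistently higher and 21.8% as consistently lower. Of 7 other T cell receptor constant genes, none was higher in all 6 sections and 2 were lower. These were Trac, the alpha chain constant gene, with 643 UMIs, and Trbc1, with 28 UMIs and none in Rprm and Tbr1 spots. Of 18 T cell genes, 1 was higher in all sections (Skap1, an adaptor protein gene) and 9 were lower. Cd3e had 20 UMIs, Cd3d 53, Cd3g 38 and Cd8a 41, and Cd3e, Cd3g and Cd8a had 0 in Rprm and Tbr1 spots.

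Of 10 B cell genes, Blnk, an adaptor of the B cell receptor, and Fcmr, a receptor of immunoglobulin M, were higher in Rprm and Tbr1 spots in all 6 sections, at 11.99 against 5.47 CPM and 0.900 against 0.322 CPM, and 3 were lower. The B cell gene Ms4a1 had 11 UMIs, Cd79a had 164 and Pax5 had 9. Of 10 plasma cell genes, Xbp1, a transcription factor of secretory and stressed cells, was higher, at 85.6 against 77.0 CPM, and 3 were lower, and Mzb1 had 85 UMIs. Of 8 immunoglobulin receptor genes 1 was higher, which was again Fcmr, and 4 were lower. In age, no gene of these lists was called in whole sections, Rprm and Tbr1 spots or other spots for any contrast, where other spots had 0.0285% of genes called for middle against young. For old against young in whole sections the median log2 change was 0.60 over the 2 tested immunoglobulin constant genes, 0.32 over 2 T cell receptor constant genes, 0.59 over 9 T cell genes, 0.38 over 7 B cell genes, 0.14 over 9 plasma cell genes and 0.53 over 7 receptor genes, beside -0.0023 over all genes. In Rprm and Tbr1 spots the medians did not share 1 direction. They were -0.13 over 3 T cell genes, -0.11 over 3 B cell genes and -0.014 over 2 plasma cell genes. For 1 immunoglobulin constant gene the value was 0.21, and the median was 0.31 over 5 receptor genes. No V gene and none of the 3 recombination genes passed the filter on low counts.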

How the data were processed

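Visium libraries of 6 coronal brain sections were measured. The authors deposited raw UMI counts of each gene in each spot; the file headers name Space Ranger 1.3.1, and the submitters' processing notes name Space Ranger 3.1 and build mm10. The steps below were computed from these counts. Spots with under 500 UMIs were left out. UMIs were summed per section over all spots, over spots with at least 1 Rprm and at least 1 Tbr1 UMI per 10000, over the other spots and over clusters, and divided by the summed UMIs to give CPM. The section was the replicate, taken from the labels' titles. Section depth was 60938938 to 77557934 UMIs.

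Age was tested with edgeR 4.0.16 in R 4.3.3 (TMM factors, filterByExpr, robust quasi-likelihood fit, 6 sections sharing 1 estimate of the spread, Benjamini-Hochberg adjustment over all genes tested, threshold 0.05, two-sided). The interaction was fitted on 12 sums with section as a block. Shares of spots were compared by exact permutation over 90 assignments. Clusters came from 2000 variable genes without antigen receptor genes, 30 principal components, 20 neighbours and Leiden clustering (leidenalg 0.10.2, resolution 0.8), which gave 24 clusters, 20 of them named from marker lists. No doublet caller was run, since spots hold several cells, and no spot coordinates were used. Sequences were read from the GRCm38 genome with GENCODE M21 transcripts.

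The members, gene lists and spot classes were chosen with earlier results of these data known. Genes are named if they are members, Rprm or Tbr1, among the 5 most like a member, among the 5 highest by the ratio of spot classes, or, from each list, the most counted members. The list genes Cd3d, Cd3e, Cd3g, Cd8a, Ms4a1, Cd79a, Pax5 and Mzb1, the layer 6 markers, the genes called for the interaction, Ccn2, Cplx3 and Trdc were named after their values were seen. The values of 1 list gene are not reported here. Alternatives were DESeq2 1.42.0, RLE factors, other filters, slide and replicate blocks, each section left out, and other thresholds for the spot classes. On simulated counts with 200 genes changed by a fold of 2, the fit recovered 78.7% in whole sections (17673 genes), 79.8% in Rprm and Tbr1 spots (13834 genes) and 68.0% for the interaction (16771 genes), with 10.9%, 10.5% and 12.9% of calls false, which is above the nominal share.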

Additional observations from a re-analysis of the deposited data

Results flagged for a closer look

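The change of Ighm from young to old differed between spot classes by a test of the difference itself. The log2 change in Rprm and Tbr1 spots minus that in other spots was -0.93 (edgeR adjusted p = 7.13e-10). Both old sections lay below both young ones in the Rprm and Tbr1 spots and above them in the other spots. Without the dentate gyrus and CA1 clusters in the other spots, an alternative added after seeing the data, old and young sections overlapped there and the difference was -0.64 (edgeR adjusted p = 0.000178). Between clusters the direction also parted, without a test of that difference. The mean level of Ighm was 86.1 CPM higher in old than in young sections in the dentate gyrus cluster, where both old sections lay above both young ones, and the old minus young difference was -35.4 CPM in the layer 6 cluster, where both lay below.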

How the results depend on the processing

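The interaction of Ighm was called with all 14 alternatives (-0.64 to -1.01). The number of members called in Rprm and Tbr1 spots for old against young, 1, became 0 with the replicate block, with the threshold at 0.5 and with the top 10% of spots, where Ighm was at -0.53 (adjusted p = 0.0513), -0.36 and -0.40; leaving out sections gave 0 to 1 called, with Ighm from -0.65 to -0.39. For old against middle, 0 became 1 with no filter on low counts and with slide as a block (0 to 1 without single sections). In the dentate gyrus, Ighm lost its call with at least 10 counts per section (1.42), slide as a block (1.58), the replicate block (1.36) and finer clusters (1.44), and ranged from 1.2 to 1.97 without single sections. No call was made before or after for the values that turned direction. Jchain, old against young, was -0.055 with slide as a block and -0.12 to 0.29 without single sections. Igkc, old against middle, was 0.032 with slide as a block, 0.045 with the replicate block, 0.61 without spots of at least 10 Igkc UMIs (added after seeing the data) and -0.74 to 1.01 without single sections. Ighm, middle against young in Rprm and Tbr1 spots, was 0.11 at the threshold of 0.5, 0.010 for the top 10% and -0.14 to 0.12 without single sections. Without single sections, Ighm in whole sections for old against young ran from -0.054 to 0.23, Trbc2 for middle against young from -0.25 to 0.0057, and Ighm in the layer 6 cluster for middle against young from -0.24 to 0.083. The interaction of Trbc2 was -0.13 at a threshold of 2. The old minus young share of Rprm and Tbr1 spots was -0.040 percentage points at a threshold of 2 and -0.0042 to 1.83 without single sections. The level difference between spot classes was 51.0 CPM at 0.5 and 114 CPM at 2 for Ighm; for Trbc2 it was 50.4 and 114 CPM, 69.5 CPM for the top 10% and 66.1 CPM without the 10 highest spots per section, and for Jchain it was 0.048 CPM without those. The causes were not tested.

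Numbers of genes called depended on the tool and filter: for old against young 29 in whole sections became 7 to 194, 46 in Rprm and Tbr1 spots became 17 to 168, and 10 for the interaction became 2 to 60; for middle against young 12 became 3 to 70 and 57 became 14 to 155; for old against middle in Rprm and Tbr1 spots 1 became 0 to 16. Sections of the same replicate number had correlations of deviations of 0.019, 0.13 and 0.24, so the numbers were not taken as pairs, and the replicate block changed no member's call other than those above. Precision is limited by 2 sections per age and, for Igkc and Jchain, by counts of 37 to 310 UMIs per section.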
